A study of Mus musculus with 6 samples.

Results

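Cytosolic ribosomal protein genes were read from the transcriptome of sorted Treg cells as the rows whose symbol starts with Rpl or Rps and a number, together with Rpsa, Rplp0, Rplp1 and Rplp2. Rows of the ribosomal protein S6 kinases and rows marked as pseudogenes in their symbol were left out. This gave 88 members among 24420 rows of the deposited gene count table. Of these, 46 encoded core proteins of the large subunit and 31 core proteins of the small subunit. A further 10 were paralogs or retrocopies (Rpl3l, Rpl7l1, Rpl10l, Rpl22l1, Rpl36al, Rpl37rt, Rpl39l, Rps4l, Rps27l and Rps27rt). The remaining one, Rps19bp1, matched the symbol rule but encodes a binding partner of Rps19 and not a ribosomal protein. Fau and Gnb2l1, which encode ribosomal proteins under other names, were outside the rule and are described separately.

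The ribosome of the cytosol is built from a small subunit, which reads the mRNA, and a large subunit, which joins amino acids. Each subunit holds ribosomal RNA and a set of proteins that are present in about equal number, and most of these proteins come from a single active gene with many inactive processed copies elsewhere in the genome. Their mRNAs carry a terminal oligopyrimidine tract, through which mTORC1 controls their translation, and mTORC1 activity is one of the pathways on which Treg cells depend.

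The study compared YFP+ Treg cells of female C57BL/6 mice in 2 groups of 3 samples. The labels do not state that the samples of a group came from separate mice, and the p-values measure the spread between these samples. Both groups carried Foxp3 YFP-Cre/wt. OGT-sufficient cells were from females with Ogt wt/fl and OGT-deficient cells from females with Ogt fl/fl, so the YFP-Cre allele and at least 1 floxed Ogt allele were shared by both groups. OGT is the enzyme that attaches O-linked N-acetylglucosamine to nuclear and cytosolic proteins, and its gene lies on the X chromosome, as does Foxp3. Cre was expressed from the Foxp3 locus, and in these heterozygous females YFP marks the part of the Treg cells that uses the X chromosome with Cre. Which X chromosome held the floxed allele in the heterozygous group was not stated in the labels. Lymph node cells were enriched for CD4 on beads and sorted on YFP, and the RNA of the sorted cells was sequenced in bulk, so that fewer cells of a type and less RNA per cell cannot be told apart.

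Ogt itself, the targeted gene, had 150, 170 and 252 CPM (counts scaled to a library of 1000000) in the OGT-sufficient group (replicates 1, 2 and 3 in this order, as in all lists of values) against 84.4, 67.3 and 96.4 CPM in the OGT-deficient group. The groups did not overlap, and the log2 fold change was -1.21, with a 95% interval of -1.69 to -0.73 (edgeR quasi-likelihood test, adjusted p = 0.191). The adjusted p of Ogt ranged from 1.62e-05 to 0.764 over the alternatives. The counts cover the whole gene, and the place of the deleted part was not given in the sources used here. Total counts were between 3375454 and 4103552 per sample, of which the ribosomal RNA precursor Rn45s took between 24.2 and 37.0%. OGT-sufficient replicate 3 stood apart from the other libraries, with the lowest total, the lowest Rn45s share and 18346 rows with a count against 14412 to 15197 in the others. The Treg marker list (7 genes) summed to 1997 CPM in this library and 2643 to 2966 CPM in the others, and Foxp3, which defines the lineage, had 719 to 1116 counts in every library. Its B cell list (7 genes) summed to 286 CPM against 81.2 to 150 CPM, its erythroid list (6 genes) to 856 CPM against 221 to 489 CPM, and its neutrophil list (5 genes) to 145 CPM against 6.96 to 29.1 CPM. The macrophage list (12 genes) ranged from 1533 CPM in OGT-deficient replicate 1 to 6564 CPM in OGT-deficient replicate 3, with 2146 CPM in OGT-sufficient replicate 3. The CD8 and NK list (5 genes) summed to 14.2 to 32.9 CPM, and no marker of the 6 lists was at 0 over all samples. The part of these cells in the results below was not tested, and fold changes without OGT-sufficient replicate 3 are given beside the values that moved most.

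The members took a small share of the counts in both groups. With Rn45s left out of the total, the share was 1.36, 1.39 and 1.01% in the OGT-sufficient group against 1.37, 1.27 and 1.23% in the OGT-deficient group. The 95% Wilson interval, which covers counting error only, was 0.999 to 1.02% for OGT-sufficient replicate 3 and 1.21 to 1.24% for the next lowest library, OGT-deficient replicate 3. The means were 1.25% ± 0.21 (SD, n = 3) and 1.29% ± 0.0718 (SD, n = 3), and the groups overlapped. Core proteins of the large subunit took 0.578 to 0.765% of the counts, those of the small subunit 0.364 to 0.534%, and the paralogs and retrocopies 0.0671 to 0.102%.

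Levels differed widely between members. Per kilobase of mRNA, the core members ranged from no count to 835 CPM, with a median of 42.2 and quartiles of 9.48 and 122 CPM per kb. The highest was 484 times the lowest member with a count. The mean count was 1000 or more for 8 of the 77 core members and under 50 for 28 of them. The 5 members with the most counts took 41.1% of all member counts. Levels per length and their ranks depend on the transcript used for each gene. Rps20, with a transcript of 3706 bases, was number 10 of all members by counts and number 32 per length.

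**Figure D1:**
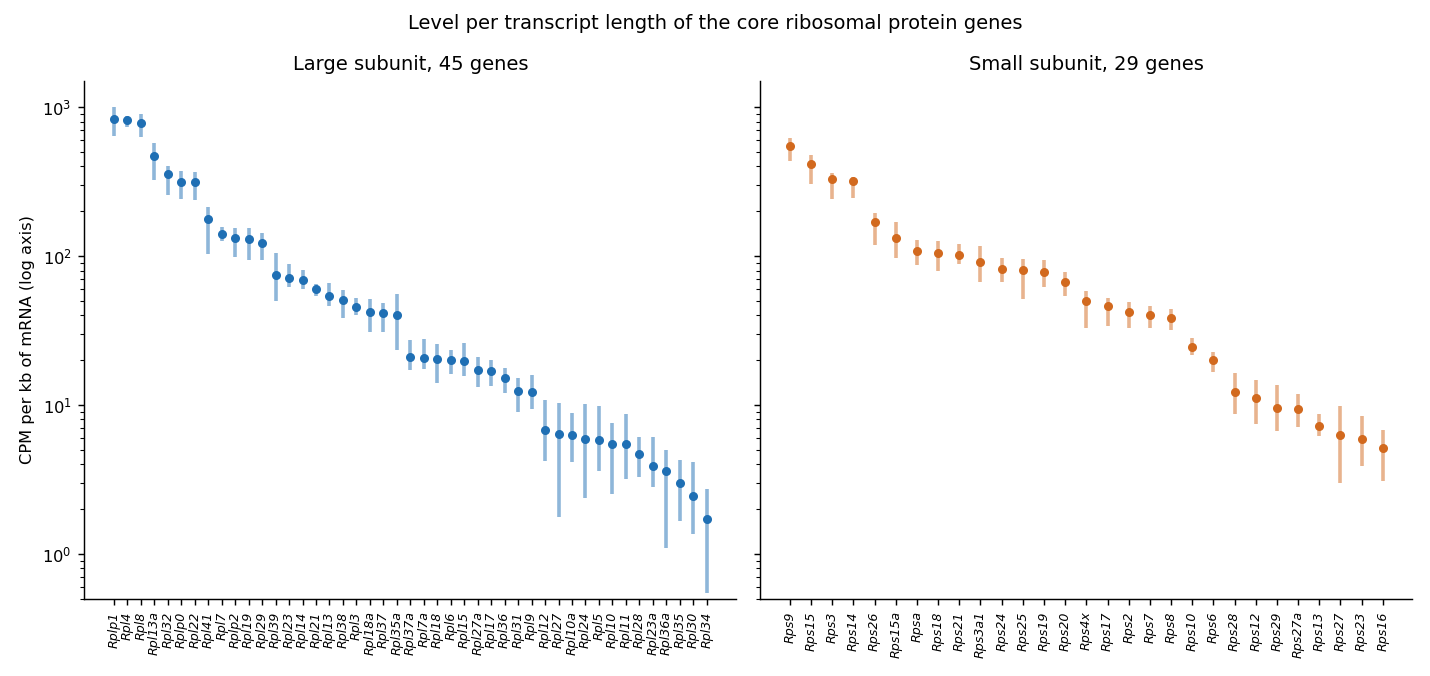
Level of each core ribosomal protein gene, as CPM per kilobase of its mRNA on a log axis, ranked within the large subunit (left, 45 genes with counts) and the small subunit (right, 29 genes). Points are means of 6 samples and lines run from the lowest to the highest sample. Rpl26 had no count and is not drawn. The order falls from Rplp1 (835) to Rpl34 (1.73) and from Rps9 (547) to Rps16 (5.11).

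Among the large subunit members, the highest per length were Rplp1 (835 CPM per kb), Rpl4 (826), Rpl8 (782), Rpl13a (470) and Rpl32 (358). Rplp1 encodes an acidic protein of the stalk that recruits translation factors. Its partners in the stalk had lower levels per length, 317 CPM per kb for the stalk base Rplp0 and 133 CPM per kb for Rplp2. Rpl4 had the most counts of all members, with 1295, 1322 and 1137 CPM in the OGT-sufficient group against 1337, 1259 and 1272 CPM in the OGT-deficient group. Its groups overlapped, and its log2 fold change of 0.04 (95% interval -0.23 to 0.31) was one of the most narrowly bounded.

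Among the small subunit members, levels per length were high in Rps9 (547 CPM per kb), Rps15 (418), Rps3 (331) and Rps14 (319). Rps3 lies at the entry of the mRNA channel and also takes part in DNA repair. It had 664, 680 and 461 CPM in the OGT-sufficient group against 687, 663 and 639 CPM in the OGT-deficient group. Rps6, the mTORC1-dependent substrate of the S6 kinases, was far below these at 20.1 CPM per kb. It had 75, 54 and 66 counts in the OGT-sufficient group against 72, 73 and 65 counts in the OGT-deficient group. A smaller part of the Rps6 mRNA is distinct from other annotated genes than in Rps9, Rps15, Rps3 and Rps14, with values below. The part of this in the low level of Rps6 was not tested. Rpl5 and Rpl11, which bind the 5S ribosomal RNA and can inhibit MDM2, had 5.79 and 5.43 CPM per kb. Rps27a, which is made as a fusion with ubiquitin, had 9.41 CPM per kb. Rpl26 and the retrocopy Rps27rt had no count in any library, which allows up to 3 counts, or 0.759 to 0.808 CPM, per library. This bound covers counting error only, and not how reads that also match copies elsewhere were placed. Rpl34, Rpl30, Rpl36a, Rps27 and Rpl23a had means between 3.17 and 8.33 counts.

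The rows differed in how much of their mRNA is distinct. The mRNA of each member (GENCODE M21, build GRCm38) was divided into overlapping windows of 50 bases, the read length, and each window was looked up in the transcripts of all other annotated genes. Of the 77 core members, 76 shared windows with at least 1 annotated pseudogene, with a median of 9 and up to 120 pseudogenes. The share of windows found in no other gene had a median of 44.6% and went down to 1.35% for Rps27. The 24 core members with under 25% of distinct windows had a median level of 16.0 CPM per kb, against 40.1 for the 31 members with 25 to 60% and 229 for the 22 members with 60% or more. Across the 77 genes, the level per length and the share of distinct windows had a Spearman rho of 0.47. This is a description over genes that share the same libraries, and both measures depend on the transcript used for each gene. Rps29, with 64.2% of distinct windows but 9.48 CPM per kb, and Rplp1, with 40.0% and 835 CPM per kb, departed from that order. Rps6 had 15.4% of distinct windows, against 67.0% for Rps9, 61.0% for Rps15, 97.0% for Rps3 and 61.9% for Rps14. How reads with several equally good places were counted was not given in the sources used here, and its part in these levels was not tested. The share of windows within 1 exon had a median of 69.1% over the core members, and was 29.0% for Rps21. The aligner named was Bowtie2, and the part of reads that cross exon junctions in these levels was not tested.

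**Figure D2:**
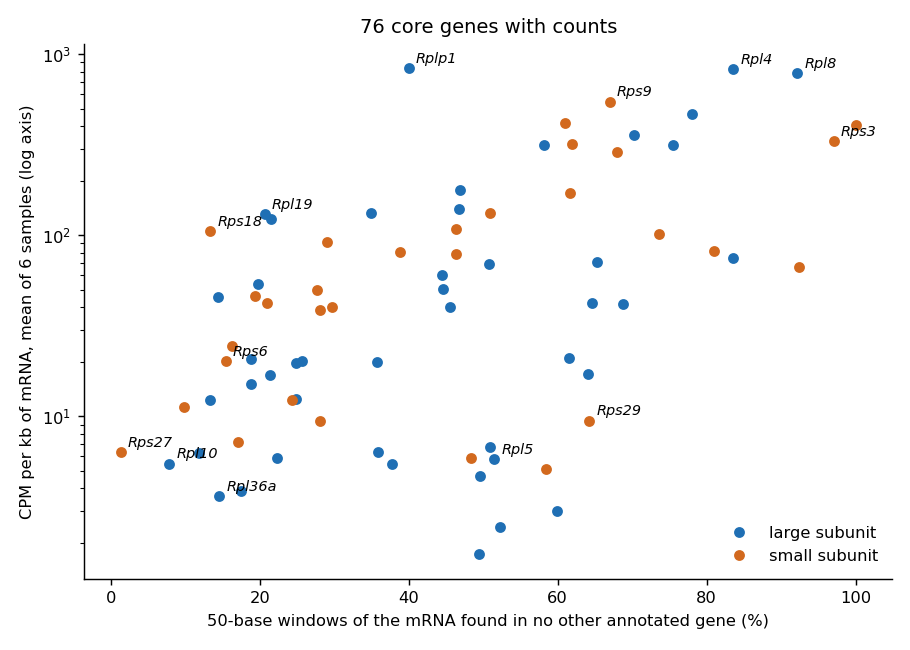
Level of 76 core ribosomal protein genes (CPM per kilobase of mRNA, mean of 6 samples, log axis) against the percentage of 50-base windows of the mRNA found in no other annotated gene. Each point is a gene, coloured by subunit. Genes at 60% or more had a median of 229 CPM per kb and genes under 25% a median of 16.0.

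Some members had a near-identical partner in the same table, and the counts were divided unevenly between the rows. The stretches shown are coding sequence within 1 exon of the member. They are the first bases, up to 120, of the longest coding part of an exon, set beside the closest stretch of the partner. Capitals mark the letters that differ from the partner. A 50-base read has the same letters in both rows wherever no base is in capitals. Rpl37 and its retrocopy Rpl37rt were identical over these 120 bases (chr15:5117287-5117406 on the plus strand for Rpl37, and chr5:115103399-115103518 on the minus strand for Rpl37rt, GRCm38).
Rpl37 and Rpl37rt: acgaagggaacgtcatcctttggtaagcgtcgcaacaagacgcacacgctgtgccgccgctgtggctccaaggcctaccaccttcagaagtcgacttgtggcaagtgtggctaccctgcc
The retrocopy row Rpl37rt held 10239 counts in all, and Rpl37 held 798. With its annotated copy of 294 bases, Rpl37rt had the highest level per length of all 88 members (1519 CPM per kb, against 41.7 for Rpl37). Its exons in all transcripts together cover 752 bases, so that this level and its rank depend on the transcript used. Of the windows of Rpl37rt, 8.98% were distinct and 81.2% were shared with Rpl37. Per library, Rpl37rt had 457, 450 and 348 CPM in the OGT-sufficient group against 551, 497 and 376 CPM in the OGT-deficient group. GENCODE M21 classes it as a transcribed processed pseudogene.

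Rpl14 (chr9:120574095-120574214, plus strand) and the pseudogene row Rpl14-ps1 (chr7:45325319-45325438, plus strand), which is not a member, differed at 5 of 120 bases.
Rpl14: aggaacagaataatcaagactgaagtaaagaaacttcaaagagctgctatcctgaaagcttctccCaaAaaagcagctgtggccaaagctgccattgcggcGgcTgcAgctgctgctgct
Rpl14-ps1: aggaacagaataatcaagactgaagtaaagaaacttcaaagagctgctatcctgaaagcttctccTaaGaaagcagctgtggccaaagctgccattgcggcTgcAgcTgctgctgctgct
Rpl14 had a mean of 268 counts per library and Rpl14-ps1 1306. Rps27 (chr3:90212934-90213044, minus strand) and its retrocopy Rps27rt (chr9:114982482-114982592, minus strand) were identical over 111 bases.
Rps27 and Rps27rt: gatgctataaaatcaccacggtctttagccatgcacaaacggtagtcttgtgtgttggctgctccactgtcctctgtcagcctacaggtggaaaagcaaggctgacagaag
Rps27rt shared 98.6% of the windows of Rps27. Rps27 had 50 counts in all libraries together and Rps27rt had none. In all, 21 members shared at least 10% of their windows with another row of the table, and the values of these members are uncertain to that extent. The uncertainty is not confined to them, because other members shared windows with annotated copies that have no row. Rpl10, for example, shared 92.1% of its windows with Rpl10-ps3, and 7.87% of its windows were distinct.

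No ribosomal protein gene passed the test between OGT-deficient and OGT-sufficient cells, and their fold changes were centred close to 0. Of the 88 members, 78 passed the filter on low counts and were tested. None of the 78 passed a false discovery rate of 0.1, against 0.0274% of the 10949 genes tested. At an unadjusted p under 0.05, 1 member was higher in OGT-deficient cells and 1 was lower (Rpl39), that is 1.28% in each direction, against 3.09% of all genes tested higher and 4.01% lower. DESeq2, run on the same counts without the filter (86 members), had 2 members higher and none lower at this threshold, against 1.29 and 1.25% of 19710 genes, and none past the false discovery rate. The median log2 fold change, OGT-deficient minus OGT-sufficient, was -0.01 over the members and -0.02 over all genes tested, and the median of the members changed sign between alternatives with all samples (-0.04 to 0.04). The fold change was above 0 for 38 members and below 0 for 40, that is above 0 in 48.7% against 47.3% of all genes. The fold changes of the members had an SD of 0.22, against 0.32 for all genes.

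The 95% interval of the fold change lay within a 2-fold change in either direction for 68 of the 78 members and within a 1.5-fold change for 38. All 42 tested members with a mean of 100 counts or more were within the 2-fold bounds, and 34 of them within the 1.5-fold bounds. The widest intervals belonged to Rpl24 (log2 fold change 0.08, from -1.01 to 1.16) and Rpl27 (0.60, from -0.48 to 1.69), both with about 15 counts per library.

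The 41 large subunit genes tested had a median log2 fold change of -0.06 (17 above and 24 below 0, from -0.48 to 0.60). The 30 small subunit genes had a median of 0.02 (17 above and 13 below 0). The difference between the subunits was not tested. The 6 paralogs and retrocopies tested had a median of 0.24, from -0.23 for Rpl22l1 to 0.37 for Rps27l. Rpl36al, a retrogene that encodes nearly the same protein as Rpl36a, had a log2 fold change of 0.29, Rps4l one of 0.35, Rpl7l1 one of -0.12 and Rpl37rt one of 0.18. Rps19bp1 had a log2 fold change of -0.37.

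**Figure D3:**
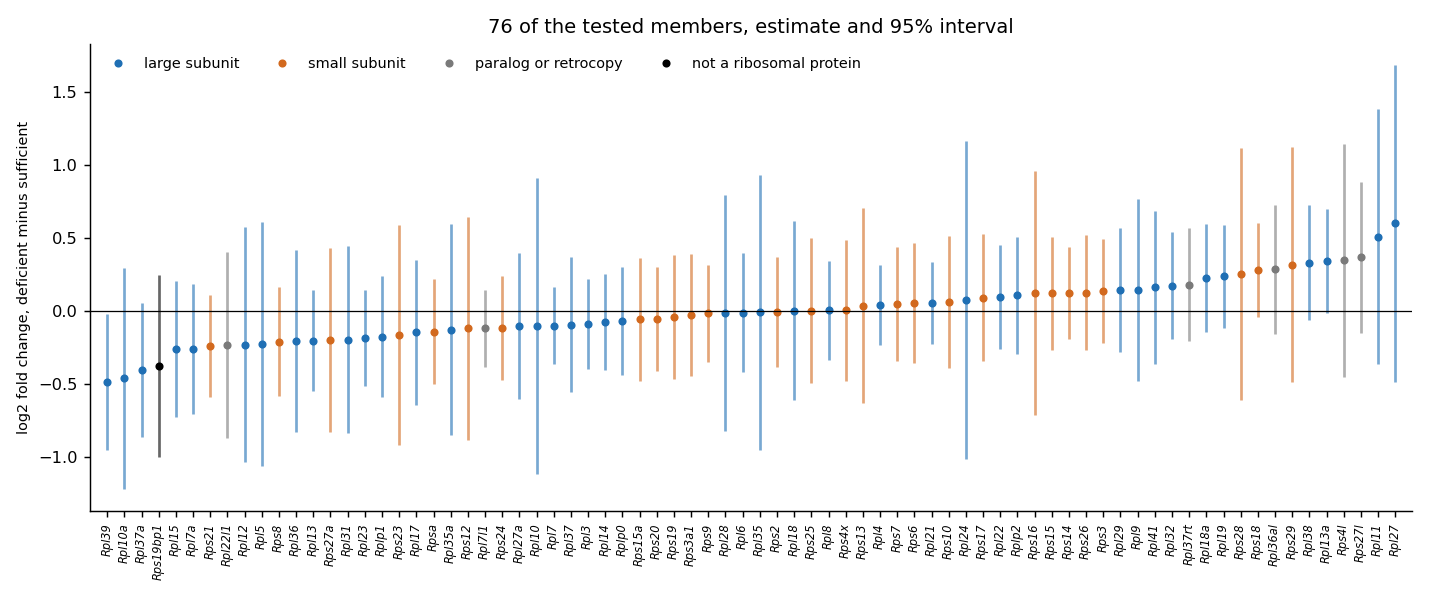
Log2 fold change (OGT-deficient minus OGT-sufficient) of 76 of the 78 tested members, ordered by value, with 95% intervals from the edgeR fit. Colours mark the subunit or class. The values run from -0.48 (Rpl39) to 0.60 (Rpl27), and of the members drawn the interval of Rpl39 alone leaves out 0 before adjustment.

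Rpl13a encodes a large subunit protein that also takes part in silencing of inflammatory mRNAs in myeloid cells. It had 462, 499 and 339 CPM in the OGT-sufficient group against 602, 536 and 512 CPM in the OGT-deficient group, and the groups did not overlap. The log2 fold change was 0.34 (SE 0.16), with an adjusted p = 0.703, and it was 0.21 without OGT-sufficient replicate 3.

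Of the 78 tested members, 5 were higher in every OGT-deficient sample than in any OGT-sufficient sample (6.41%, against 5.72% of all genes tested), and 1 was lower in every one (1.28%, against 7.48%). Rpl13a, Rps18, Rpl38 and Rps27l were among the higher ones. Rps18, a protein of the head of the small subunit, had 56.6, 58.5 and 44.8 CPM against 70.9, 62.2 and 61.3 CPM (log2 fold change 0.28, adjusted p = 0.731). Rpl38, known for its role in the translation of Hox mRNAs, had 16.6, 16.7 and 13.2 CPM against 19.3, 18.7 and 20.4 CPM (log2 fold change 0.33, adjusted p = 0.749). Rps27l, a p53-responsive paralog of Rps27, had 11.5, 14.6 and 8.42 CPM against 14.7, 14.7 and 15.2 CPM (log2 fold change 0.37, adjusted p = 0.765). In these 4 genes OGT-sufficient replicate 3 was the lowest of the 6 libraries. Without that library the log2 fold changes were 0.18 for Rps18, 0.24 for Rpl38 and 0.20 for Rps27l.

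The single member without overlap in the other direction was Rpl37a, a zinc-binding protein of the large subunit. It had 15.2, 11.3 and 13.7 CPM in the OGT-sufficient group against 9.54, 10.1 and 10.7 CPM in the OGT-deficient group (log2 fold change -0.40, SE 0.20, adjusted p = 0.734). Rpl39, a small protein of the peptide exit tunnel, had 64.1, 56.6 and 39.2 CPM against 42.6, 41.2 and 30.7 CPM. Its groups overlapped through OGT-sufficient replicate 3, and its log2 fold change was -0.48 (SE 0.21, adjusted p = 0.685). Rps21, a protein of the small subunit, had 47.8, 47.1 and 34.8 CPM against 36.9, 38.0 and 35.4 CPM (log2 fold change -0.23, adjusted p = 0.776).

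**Figure D4:**
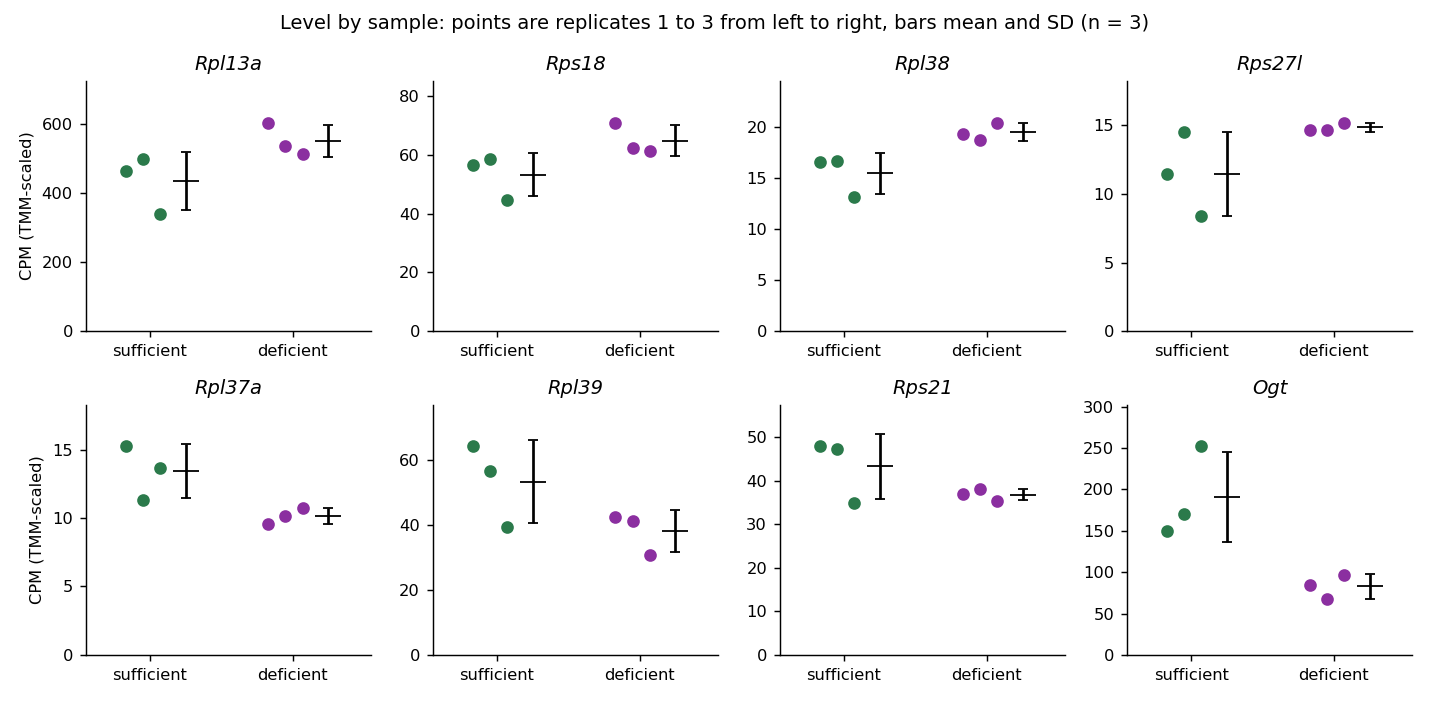
TMM-scaled CPM of 7 members and of Ogt in each sample (vertical axes start at 0). Points are replicates 1 to 3 from left to right and bars are the mean and SD of 3 samples. The OGT-deficient points lie above all OGT-sufficient points in Rpl13a, Rps18, Rpl38 and Rps27l and below them in Rpl37a and Ogt, and the groups overlap in Rpl39 and Rps21.

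OGT-sufficient replicate 3 was the lowest of the 6 libraries in 44 of the 78 tested members (56.4%), against 23.8% of all genes tested, and the highest in 5. The low values were those of the well-counted members. Among the 42 members with a mean of 100 counts or more it was the lowest in 32 and the highest in none, and its CPM was below the mean of the other 5 libraries by a median log2 ratio of -0.44. Among the 36 members with fewer counts it was the lowest in 12 and the highest in 5, with a median log2 ratio of -0.01, and over all genes tested the median was -0.01. Rpl5 and Rpl24 had their highest counts in this library, 76 against 29 to 54 and 26 against 6 to 19. The part of the B cell, erythroid and neutrophil markers that were high in the same library was not tested.

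**Figure D5:**
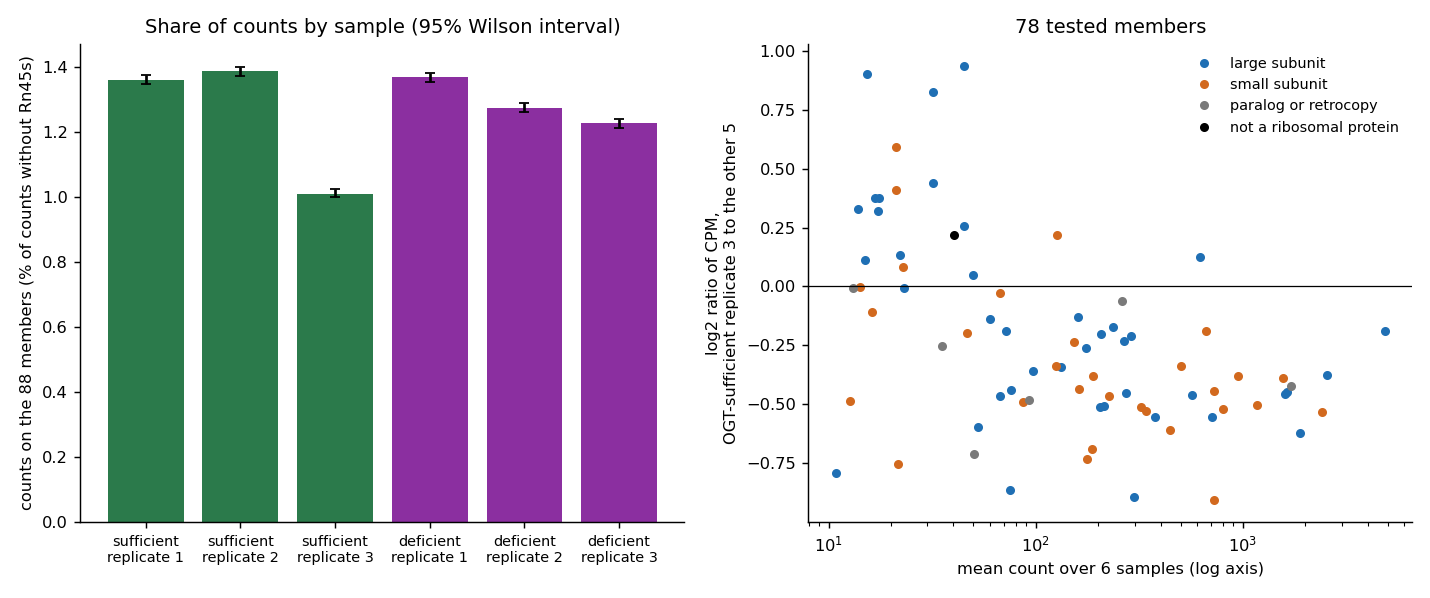
Left, counts on the 88 members as a percentage of all counts without Rn45s in each sample, with 95% Wilson intervals (counting error only). Right, log2 ratio of the CPM in OGT-sufficient replicate 3 to the mean of the other 5 libraries against the mean count (log axis) for the 78 tested members. The bar of OGT-sufficient replicate 3 is the lowest (1.01%), and most members with 100 counts or more lie below 0.

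When OGT-sufficient replicate 3 was left out, other members were under the unadjusted threshold. At an unadjusted p under 0.05, 1 member was higher and 4 were lower, namely Rpl39 (log2 fold change -0.65), Rplp1 (-0.35), Rps21 (-0.36) and Rpl23 (-0.29). These are 1.28 and 5.13% of the 78 members, against 3.33% of all genes tested higher and 3.6% lower without that library. The adjusted p values of these 4 were then 0.420 for Rpl39, 0.582 for Rplp1, 0.649 for Rps21 and 0.715 for Rpl23, and no member passed the false discovery rate. That of Rpl39 ranged from 0.420 to 0.9998 over all alternatives. The median over the members was then -0.10.

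Fold changes of members that stayed above the unadjusted threshold also moved when this library was left out. That of Rpl11 was 0.92 (adjusted p = 0.727) instead of 0.51, that of Rpl24 0.77 instead of 0.08 and that of Rpl27 0.89 instead of 0.60. Those of Rpl5 and Rpl10 changed sign, to 0.27 and 0.08. The paralogs Rpl22l1, Rpl36al and Rps4l were at -0.36, 0.18 and 0.46 and the retrocopy Rpl37rt at 0.08. Other fold changes went down, to 0.03 for Rpl32, -0.12 for Rpl8, -0.15 for Rps9, -0.21 for Rps4x and -0.22 for Rplp0, and Rpl4, Rps3, Rps14 and Rps15 were within 0.03 of 0. Rplp2 and Rpl22 were then at -0.04.

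Of the members on the X chromosome, where Ogt and Foxp3 also lie, Rps4x had a log2 fold change of 0.01, Rpl10 one of -0.10 and Rpl39 one of -0.48, and Rpl36a (2 to 9 counts per library) was not tested. The proteins of the stalk had log2 fold changes of -0.17 for Rplp1, 0.11 for Rplp2 and -0.06 for Rplp0. Rpl22, which binds RNA and is needed for the development of alpha-beta T cells, had a log2 fold change of 0.10, and its paralog Rpl22l1 one of -0.23. Of the other members with the highest levels per length, Rpl8 had a log2 fold change of 0.01, Rps9 one of -0.01, Rps14 one of 0.13, Rps15 one of 0.12, Rps3 one of 0.14 and Rpl32 one of 0.18. Rps6 had a log2 fold change of 0.06 (95% interval -0.35 to 0.47), Rpl5 one of -0.22 and Rpl11 one of 0.51, and the 95% intervals of the genes of this paragraph, other than Rpl39, included 0. The signs of Rpl8, Rps9 and Rps4x changed with the scaling or the tool, and all 3 were within 0.03 of 0.

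Many ribosomal protein genes carry small nucleolar RNAs in their introns, which guide the modification of ribosomal RNA. The table held 34 small nucleolar RNA rows within the bounds of 24 members, of which 23 were tested. These rows were examined after the members' values were known. Of the 23, 3 were higher in OGT-deficient cells at an unadjusted p under 0.05, against 3.09% of all genes tested, none passed the false discovery rate, and the median log2 fold change was 0.32. All 3 lie in Rpl13a. Snord32a had 24.8, 28.3 and 14.2 CPM in the OGT-sufficient group against 42.8, 42.2 and 45.6 CPM in the OGT-deficient group (log2 fold change 0.96, adjusted p = 0.348). Snord34 had 45.2, 49.0 and 49.8 CPM against 68.6, 66.8 and 126 CPM (log2 fold change 0.86, adjusted p = 0.463). Snord35a had 14.4, 12.9 and 7.37 CPM against 16.8, 16.7 and 21.5 CPM (log2 fold change 0.66, adjusted p = 0.669). The groups did not overlap in any of the 3. The fourth in that gene, Snord33, which overlaps an exon, had a log2 fold change of 0.15 and groups that overlapped. Without OGT-sufficient replicate 3 the log2 fold changes were 0.72 for Snord32a, 0.90 for Snord34 and 0.43 for Snord35a, and Snord35a was no longer under an unadjusted p of 0.05. With edgeR's exact test the adjusted p of Snord32a was 0.0293, and without the low-count filter those of Snord32a and Snord34 were 0.00425 and 0.00367. At the false discovery rate of 0.1, 80 of 10949 genes passed with the exact test and 131 of 19710 without the filter. In the main test 3 of 10949 genes passed. Over all alternatives the adjusted p ranged up to 0.935 for Snord32a and 0.886 for Snord34. OGT-sufficient replicate 3 was again the lowest in 16 of the 23 rows, against 23.8% of all genes tested. Examples were Snora21 within Rpl23 (18 counts against 104 to 153) and Snora52 within Rplp2 (8 against 65 to 80). The median log2 fold change of 0.32 includes these low values. Whether reads of these short RNAs were also counted on the host gene was not given in the sources used here.

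Of the ribosomal protein genes with other names, Fau was higher at an unadjusted p under 0.05. Fau, whose product is cleaved to Rps30, had 8, 4 and 8 counts in the OGT-sufficient group against 12, 18 and 11 counts in the OGT-deficient group (log2 fold change 0.97, adjusted p = 0.685). Gnb2l1, which encodes the scaffold RACK1 of the small subunit, had 2110 to 3158 counts per library and a log2 fold change of 0.08.

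Genes with related roles were read from lists. In both lists 3.45% of the genes were higher and 3.45% lower at an unadjusted p under 0.05, against 3.09 and 4.01% of all genes tested. The lists are not separate, and Npm1, lower at that threshold, is counted in each. Of 29 translation factors and other genes with terminal oligopyrimidine mRNAs, Fau was higher and Npm1 lower at that threshold, and the median log2 fold change was 0.02. The 3 with the most counts, the elongation factors Eef2 (-0.03) and Eef1a1 (0.01) and the poly(A)-binding protein Pabpc1 (-0.16), did not pass that threshold. Of 58 genes of ribosome biogenesis, 2 were higher and 2 lower at that threshold, with a median log2 fold change of 0.03. The 3 with the most counts, Ncl (-0.19), the helicase Ddx21 (-0.03) and the RNA polymerase I factor Ubtf (-0.08), did not pass. Nip7, needed for maturation of the large subunit, had 90, 69 and 63 counts against 95, 121 and 107 counts (log2 fold change 0.49, adjusted p = 0.650). Nop16, a nucleolar protein, had a log2 fold change of 0.40 (adjusted p = 0.685), and Taf1d, a subunit of the same polymerase's selectivity factor, one of -0.43 (adjusted p = 0.668). Npm1, the nucleolar chaperone nucleophosmin, had 402, 405 and 519 counts against 375, 365 and 369 counts (log2 fold change -0.31, adjusted p = 0.677). Without OGT-sufficient replicate 3 these 4 genes were no longer under an unadjusted p of 0.05, with log2 fold changes of 0.39 for Nip7, 0.35 for Nop16, -0.23 for Taf1d and -0.18 for Npm1. None of the genes of either list passed the false discovery rate in this test, and summed levels were 4389 to 4801 and 4295 to 4526 CPM for biogenesis in the respective groups.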

How the data were processed

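RNA of sorted YFP+ Treg cells (3 OGT-sufficient and 3 OGT-deficient samples) was extracted with a micro-scale column kit and sequenced as paired 50-base reads. The deposited gene counts were made by the authors, whose processing notes name Trimmomatic 0.33, FastQC, Bowtie2 2.2.4.0, featureCounts and edgeR with build mm10. The study's methods name Cuffquant for quantification instead, and the values are whole numbers. Treatment of multiply placed reads, strand and annotation were not given in the sources used here. All 6 columns of counts were mapped to samples by their labels.

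Counts were tested across all genes with edgeR 4.0.16 (TMM scaling, filterByExpr with a minimum count of 10, quasi-likelihood test, Benjamini-Hochberg adjustment, threshold 0.1) in R 4.3.3. CPM are counts scaled to a TMM-scaled library of 1000000. Alternatives were DESeq2 1.42.0, edgeR's exact test, other scalings, other filters, a replicate block, a length and GC correction and leaving out each sample. The scripts were tested on simulated data. Samples of a group differed by more than counting noise (chi-square per degree of freedom 3.31 to 22). Of the symbols, 23375 matched GENCODE M21 (GRCm38, the assembly of mm10) directly, 670 through RefSeq synonyms and 375 not at all. Each member's mRNA was its shortest principal coding transcript, and copies outside annotated transcripts were not searched for. With 3 samples a group an exact permutation test cannot go below 0.1 (two-sided), so none was run.

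The members and the gene lists were chosen with earlier results of these data known. Named were Ogt, members whose groups did not overlap, the 3 with the lowest p in each direction, the 5 highest per length in each subunit, members with known special roles, paralogs, ribosomal protein genes under other names, and in the 2 related lists the genes at an unadjusted p under 0.05 and the 3 with the most counts. The small nucleolar RNA rows, Rpl23, Rpl24 and Rpl27 were named after their values were seen. Some genes that this rule named are not reported here, and their points are left out of the plots that label each gene.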

Additional observations from a re-analysis of the deposited data

How the results depend on the processing

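No member passed a false discovery rate of 0.1 in edgeR or DESeq2 under any alternative run, and the median log2 fold change of the members stayed within 0.12 of 0. Leaving out each sample in turn moved that median between -0.10 and 0.12, the members higher at an unadjusted p under 0.05 between 0 and 4, and the members lower between 0 and 4. The 4 higher were found without OGT-sufficient replicate 2 (5.06% of members, against 4.08% of all genes) and the 4 lower without OGT-sufficient replicate 3 (5.13%, against 3.6%). The count of higher members was 2 without a filter, with the replicate block, with the length and GC correction and in DESeq2 (2.33 to 2.56% of members, against 1.29 to 3.5% of all genes). The count of lower members was 3 with the length and GC correction (3.85%, against 3.42%) and 0 in DESeq2 (against 1.25%). With Rn45s in the total, the mean shares of counts were 0.842 and 0.855% (OGT-sufficient and OGT-deficient). With Rn45s left out, and without paralogs, retrocopies and Rps19bp1, they were 1.17 and 1.2%. The 10 highest members per length and the 10 with the most counts shared 8.

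Deviations of same-numbered samples from their group means did not go together (correlations of -0.28, 0.01 and -0.12), so the numbers were not taken as pairs. With the replicate block the median was 0.01, and Rps9 was at 0.00255. Of 653 values of 41 named genes, 31 changed sign, in 13 genes. These were Rpl8 (-0.022 by library size, -0.00194 without Rn45s, -0.00448 with the length and GC correction), Rps4x (-0.0171, -0.00149 and -0.0224 in the same settings) and Rps9 (0.0289 without a filter, 0.00453 in DESeq2). Over the samples left out, the log2 fold change ranged from -0.0385 to 0.29 for Rpl22, -0.22 to 0.11 for Rpl37, -0.0118 to 0.12 for Rpl4, -0.41 to 0.27 for Rpl5, -0.12 to 0.16 for Rpl8, -0.22 to 0.0926 for Rplp0, -0.0414 to 0.27 for Rplp2, -0.000892 to 0.25 for Rps14, -0.0249 to 0.29 for Rps15, -0.00902 to 0.27 for Rps3, -0.21 to 0.18 for Rps4x, -0.0158 to 0.21 for Rps6 and -0.15 to 0.12 for Rps9. Rpl10, which is not among the 13 genes above, also changed sign, from -0.10 to 0.08 without OGT-sufficient replicate 3. The median with only members of a mean count of 100 or more, an alternative chosen after seeing the data, was 0.01. The cause of these changes was not tested. Ogt passed the false discovery rate in edgeR's exact test (adjusted p = 0.000458), without a filter (adjusted p = 1.62e-05) and in DESeq2 (adjusted p = 0.000384). Depth limits members with few counts: the intervals of 10 of the 36 with a mean under 100 counts reach beyond a 2-fold change.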

Other observations

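Rows outside the members that share at least 10% of the windows of a member also held counts. Gm6251, which shares 14.5% of the windows of Rpl32, had 1520 counts in all libraries together, with a log2 fold change of 0.23. Uimc1 shares 59.7% of the windows of Rpl29 and had 1456 counts (log2 fold change -0.09), and Gm5148 shares 42.6% of those of Rps23 and had 1196 counts (log2 fold change -0.12). Gm15421, which shares 56.5% of the windows of Rpl22l1, had 74, 66 and 53 counts in OGT-sufficient and 44, 56 and 46 counts in OGT-deficient replicates (log2 fold change -0.45, adjusted p = 0.703). Rpl14-ps1, with 7835 counts, had a log2 fold change of 0.07.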
